A study of Caenorhabditis elegans with 6 samples.

Results

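The genes described here encode the proteins of the cytoplasmic ribosome of the nematode Caenorhabditis elegans. They were taken as all genes with a symbol beginning rpl- or rps- and a number, measured by at least 1 probe set that the platform annotation assigns to that symbol alone. This gave 75 of the 17118 genes so measured, 45 of the large subunit (rpl) and 30 of the small subunit (rps), covered by 111 probe sets. The WBcel235 gene table lists 78 genes with such symbols, and rpl-18A, rpl-37.1 and rpl-37.2, which had no probe set of their own, were not analysed here. Each gene was represented by its brightest probe set over all 6 arrays. Only 35 of the 75 have any probe set whose identifier does not mark it as able to match more than 1 transcript.

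A cytoplasmic ribosome joins a small subunit, which decodes the messenger RNA, to a large subunit, which forms peptide bonds, and nearly every one of its proteins is needed in equal number. Ribosomal protein messages are therefore among the most abundant in growing and resting cells alike, and their translation is regulated by nutrient signals through the kinase TOR. Nematodes encode most ribosomal proteins by a single gene, but a few have paralogues, the best known being rpl-11.1 on an autosome and rpl-11.2 on the X chromosome. Genes on the X are largely silent in the nematode germline, and the autosomal copy of such pairs is known for its use there. The protein of this pair, called uL5 in the uniform nomenclature, sits with the 5S ribosomal RNA and RPL-5 in the central protuberance of the large subunit.

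RNA came from whole first-stage (L1) larvae, either wild type or lin-35(n745), and was hybridised to one-colour Affymetrix arrays, 3 per genotype. LIN-35 is the worm homologue of the retinoblastoma protein, a repressor that acts with E2F factors in the DREAM complex, and n745 is a nonsense allele. All larvae of both genotypes had hatched without food and were kept at 20 °C in buffer lacking cholesterol for 30 h, so every comparison is between genotypes within starvation. The labels call the arrays of a genotype biological replicates.

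Values are given in log2 units as made by RMA (robust multi-array averaging) and ran from 2.73 to 13.98 over the table. Precision is limited by the number of arrays. For lin-35 itself the probe set read 7.49, 7.15 and 7.45 on the wild-type arrays and 7.68, 7.41 and 7.18 on the mutant arrays, and since n745 is a point mutation this does not check the labels. Of the larval tissue markers, the intestinal ges-1 (8.83 to 9.43) and the neuronal rab-3 (10.2 to 10.8) were bright on every array, while the intestinal regulator elt-2 read 6.69 to 8.13 and the neuronal rgef-1 was dim throughout, at 3.64 to 4.13. On wild-type replicate 2 the muscle myosins unc-54 (9.21), myo-3 (7.37) and myo-2 (5.71) stood below all other arrays, on which unc-54 read 11.6 to 12.6. RNA integrity was read from the actin control, whose 3' probe set exceeded its 5' probe set in log2 by 0.53, 0.70 and 0.78 on the wild-type arrays and 2.31, 0.41 and 1.23 on mutant replicates 1 to 3.

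Ribosomal protein genes gave nearly the brightest signals of the whole array. Their mean over the 6 arrays had a median of 13.4, against 6.05 over all genes, and 71 of the 75 were in the brightest 1% of probe sets. Among the 100 brightest probe sets, 69 belonged to these genes. The brightest were rpl-21 (13.9) and rps-25 (13.8), the latter known for its part in internal initiation, followed by rps-3A, rpl-35 and rpl-31 (13.7 each). Means of 13 or more were reached by 62 genes and means of 12 to 13 by 10. Probe sets differ in how strongly they bind their target, so this order is one of brightness and not of transcript number.

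Below 12 lay 3 large-subunit genes. For rpl-41.1, 1 of a pair of genes for a very short peptide that bridges the subunits, the mean was 11.8. The paralogue rpl-11.1 had a mean of 10.1, and rpl-42 had a mean of 4.53 on its single probe set, within the dim range where a reading can be background. The next brightest genes, rps-20 (12.4) and rpl-28 (12.5), complete the 5 dimmest. All 30 small-subunit genes lay between 12.4 and 13.8.

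**Figure D1:**
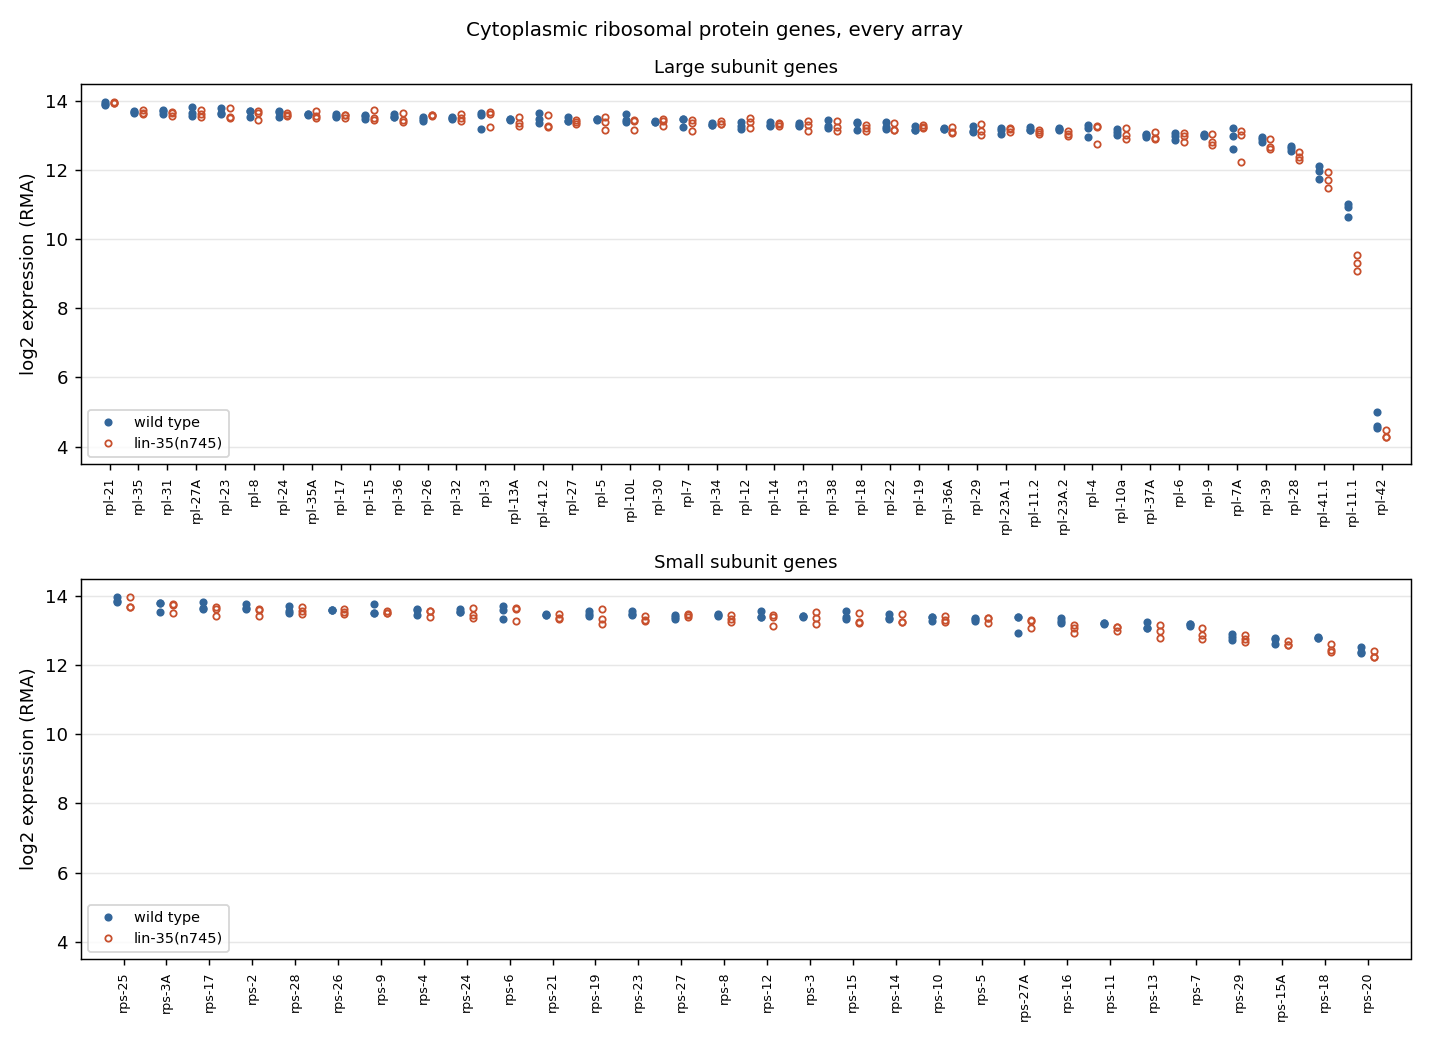
Log2 expression (vertical axis) of the 45 large-subunit and 30 small-subunit ribosomal protein genes (horizontal axis, ordered by mean), with 1 point per array, filled for wild type and open for lin-35(n745). Most genes lie above 13 in both genotypes; rpl-11.1 alone shows the mutant arrays more than 1 log2 unit below the wild-type arrays, and rpl-42 is dim on all 6.

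Against this level background, 1 ribosomal protein gene fell in the mutant and none rose. The gene that fell was rpl-11.1. Over all 17118 genes, 6.12% were called lower and 5.71% higher by the same test (limma, Benjamini-Hochberg adjusted p below 0.05 over all 22548 probe sets). At an unadjusted p below 0.05 the counts for ribosomal protein genes were again 1 lower and 0 higher, and ordinary unmoderated statistics gave 1 and 0 too. The other 74 genes differed by between −0.35 and 0.10.

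On the array scale, the differences of these 74 genes were bounded closely. The 95% interval lay within 1 log2 unit of 0, that is within 2-fold, for all 74, compared with 64.8% of all genes. It lay within 0.5 for 61 of the 75, compared with 19.8% of all genes. The median absolute difference was 0.07 over the ribosomal protein genes and 0.26 over all genes, and the standard deviation within a genotype had medians of 0.10 and 0.25. Most genes are dimmer than these, and bright probe sets may compress differences near saturation, which was not tested. Of 43 other probe sets with a mean of 13 or more, 2 were called higher and 2 lower, with differences from −1.05 to 1.12.

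No direction could be given to the family as a whole. In the values as deposited, 64 of the 75 differences were negative (54.7% of all genes), with a median of −0.07 against −0.04 over all genes. A lean to negative values was also seen in other bright probe sets. Of 43 probe sets with a mean of 13 or more outside these genes, 32 were negative, with a median of −0.08. Some of the 43 belong to ribosomal partners such as rack-1. By subunit the median was −0.05 for large-subunit and −0.09 for small-subunit genes. Centring each array on its median gave 74 negative differences, a repeated quantile normalization gave 35 with a median of 0.01, and cyclic loess gave 6 with a median of 0.18. The sign thus turned with the scaling of the arrays. By brightest probe set, mutant arrays lay entirely below wild-type arrays for 11 of the 75 genes (18.2% of all genes). They lay entirely above for 1, rpl-26 (13.1% of all genes), whose dimmer probe set went the other way.

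**Figure D2:**
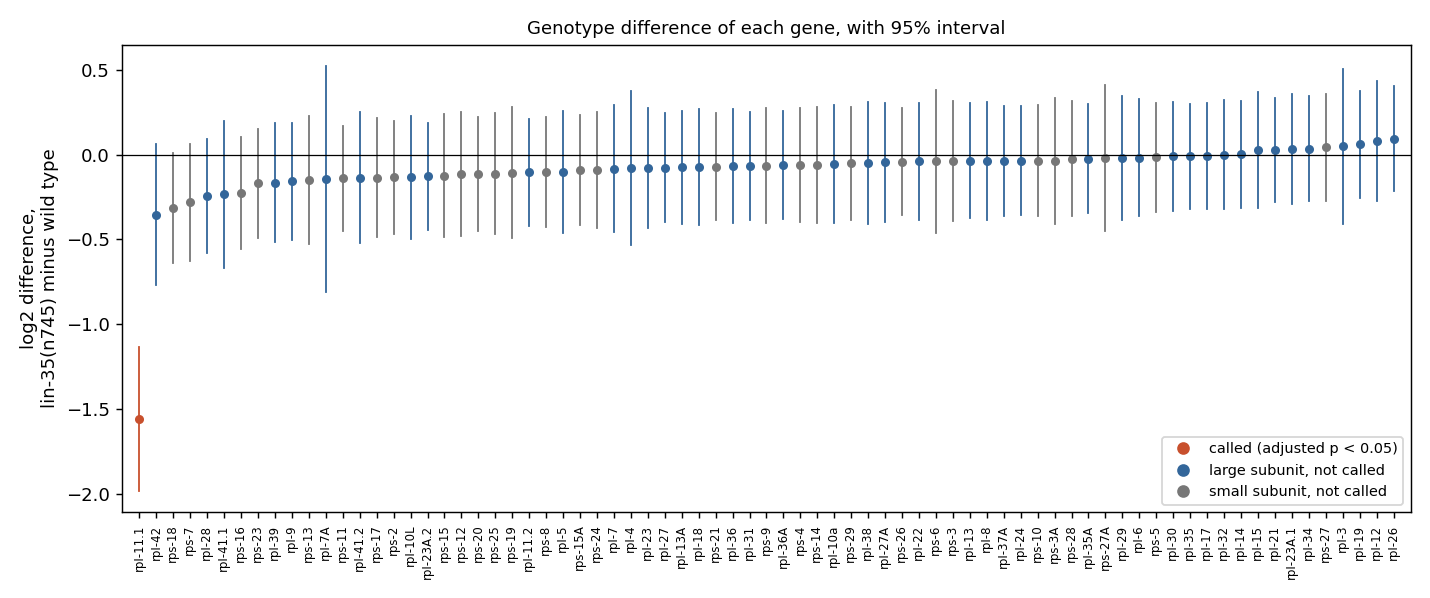
Log2 difference, lin-35(n745) minus wild type (vertical axis), for each of the 75 ribosomal protein genes ordered by difference, with its 95% interval from limma. The interval of rpl-11.1, −1.98 to −1.14, does not reach those of the other genes near 0; whether the rest lie slightly below or above 0 turned with repeated quantile normalization and cyclic loess.

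The rpl-11.1 transcript was lower in every mutant array than in every wild-type array. In replicate order, wild-type arrays read 11.02, 10.93 and 10.65 for this gene and mutant arrays 9.09, 9.53 and 9.30. The dimmest wild-type array thus stayed more than 1 log2 unit above the brightest mutant array. Wild-type arrays averaged 10.9 ± 0.19 (SD, n = 3), and mutant arrays averaged 9.31 ± 0.22 (SD, n = 3). The resulting log2 difference was −1.56 ± 0.18 (SE), with an adjusted p of 0.00303 from limma and a 95% interval of −1.98 to −1.14. On a linear scale the wild-type level was 2.95-fold that of the mutant. In whole larvae, fewer cells of a type and less RNA per cell cannot be told apart.

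The decrease of rpl-11.1 passed the test under each scaling and without any single array. Without any single array the difference lay between −1.67 and −1.45 and the limma adjusted p between 0.00843 and 0.0204. Without wild-type replicate 2, on which the myosins were low, it was −1.53 (limma adjusted p = 0.0153). With the actin 3' to 5' difference as a covariate it was −1.40 (limma adjusted p = 0.00975). With mutant replicates 1 and 3 both left out, so that replicate 2 stood alone for the mutant with the spread of the wild type assumed for it, it was −1.33 and no longer passed (limma adjusted p = 0.0583). The gene has a single probe set, whose identifier marks it as able to match more than 1 transcript, and the count of called genes was 0 when such probe sets were left out. A contribution of rpl-11.2 to its signal was not tested.

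Because rpl-11.1 is known from the germline, germline marker genes are given beside it. Of 28 germline markers 7 rose in the mutant (5.71% of all genes) and none fell (6.12% of all genes). At an unadjusted limma p below 0.05, 8 were higher and 1 lower. The P granule helicase glh-1 read 5.23 to 6.48 on wild-type and 10.1 to 10.7 on mutant arrays, a log2 difference of 4.40 (limma adjusted p = 0.000733). For syp-1, which encodes a protein of the synaptonemal complex, the difference was 4.62 (limma adjusted p = 0.000128), and for the P granule genes pgl-3 and pgl-1 it was 3.42 and 2.66 (limma adjusted p = 0.000161 and 0.000837). Summed over the 28 markers, log2 levels ran from 166.6 to 174.3 on wild-type and from 190.9 to 192.2 on mutant arrays. The sum was carried by the 7 genes that rose: the other 21 were not called, 10 of the 28 differences were negative as that of rpl-11.1 was, and the median was 0.07, or −0.02 with median centring. The lowest was that of the synaptonemal complex gene syp-2, at −0.78 (limma adjusted p = 0.0758), with groups that did not overlap. In whole larvae these levels do not count germ cells, since more RNA per cell or expression in other cells would read alike. The log2 values hold no zeros, and the part of germ cell number in the rpl-11.1 level was not tested.

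Markers of other possible contents of the samples gave few calls. A single call in lists of this size is near the share over all genes, 5.71% higher and 6.12% lower. Of 14 larval tissue markers elt-2 alone was called, higher by 0.98 (limma adjusted p = 0.0215), with 2 higher and 2 lower at an unadjusted p below 0.05. That call was lost, leaving 0, without replicate 1 or 3 of the wild type and without replicate 2 or 3 of the mutant. Of 16 embryo markers 1 was called lower and of 15 oocyte and eggshell markers 1 higher, while of 19 sperm markers none was called (limma, with 4 lower and 0 higher at an unadjusted p below 0.05, and 0 called with ordinary statistics). The sperm marker differences were negative for 16 of the 19 (54.7% of all genes), with a median of −0.28 that stayed negative under each scaling. Their means ran only from 3.47 to 5.72, a dim range where a reading can be background. The probe sets of the msp genes among them are marked as able to match more than 1 transcript, so these may not be separate readings. The embryo count was 0 when replicate 1 or 3 of the wild type was left out, and likewise for replicate 2 or 3 of the mutant. Leaving out any single array but mutant replicate 2 brought the oocyte count to 0.

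The other copy of the pair, rpl-11.2, was bright and differed little. It read 13.16, 13.16 and 13.26 on wild-type arrays and 13.03, 13.15 and 13.09 on mutant arrays, so that the mutant arrays lay below the wild-type arrays by a small margin. The difference was −0.10 (SE 0.13, 95% interval −0.42 to 0.21, limma adjusted p = 0.722). A second, slightly dimmer probe set gave −0.17 (limma adjusted p = 0.551). Both probe sets of rpl-11.2 are marked as able to match more than 1 transcript. The sign for rpl-11.2 turned to 0.01 with repeated quantile normalization and to 0.14 with cyclic loess.

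Within each array the rpl-11.1 value lay below the rpl-11.2 value, by more on every mutant array than on any wild-type array. The log2 difference rpl-11.1 minus rpl-11.2 was −2.14, −2.23 and −2.61 on wild-type arrays and −3.94, −3.61 and −3.79 on mutant arrays. The groups did not overlap and were 1.01 apart at their nearest. The gap thus widened by −1.46 in the mutant (two-sided exact permutation test, p = 0.1, the smallest p that 3 against 3 arrays allow, and 0.15 adjusted over the 3 pairs compared). Without any single array it was −1.60 to −1.36. A shift of a whole array cancels in this quantity, while a scaling that depends on intensity does not, and the value was −1.47 with repeated quantile normalization and −1.53 with cyclic loess. The value describes unequal change in the probe set readings, which a test of 3 against 3 arrays cannot bring below 0.05. It does not show that rpl-11.2 was constant.

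The rpl-23A pair encodes uL23, a protein at the mouth of the peptide exit tunnel where nascent chain factors dock. Wild-type arrays read 13.15, 13.03 and 13.21 for rpl-23A.1 and 13.18, 13.16 and 13.22 for rpl-23A.2. Mutant arrays read 13.09, 13.19 and 13.21 for rpl-23A.1 and 13.06, 13.14 and 12.99 for rpl-23A.2. Both copies were thus of similar brightness in both genotypes, though the rpl-23A.1 probe set is marked as able to match more than 1 transcript. The differences between genotypes were 0.03 for rpl-23A.1 (limma adjusted p = 0.929) and −0.13 for rpl-23A.2 (limma adjusted p = 0.649). The difference between the copies shifted by 0.16 (two-sided exact permutation test, p = 0.1, and 0.15 adjusted over the 3 pairs). Groups did not overlap for it, and were 0.04 apart at their nearest.

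In the rpl-41 pair, the probe sets of both copies moved alike from array to array. Both are marked as able to match more than 1 transcript, and whether they read the copies separately was not tested. Levels of rpl-41.1 were 11.98, 12.12 and 11.73 on wild-type arrays and 11.95, 11.70 and 11.48 on mutant arrays. Levels of rpl-41.2 were 13.48, 13.66 and 13.36 on wild-type arrays and 13.58, 13.26 and 13.26 on mutant arrays. The genotypes overlapped for each copy. The differences were −0.23 for rpl-41.1 (95% interval −0.67 to 0.20, limma adjusted p = 0.509) and −0.14 for rpl-41.2 (−0.52 to 0.25, limma adjusted p = 0.7). The gap between the copies changed by −0.10 (two-sided exact permutation test, p = 0.2, also 0.2 adjusted over the 3 pairs), a sign that turned with repeated quantile normalization.

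**Figure D3:**
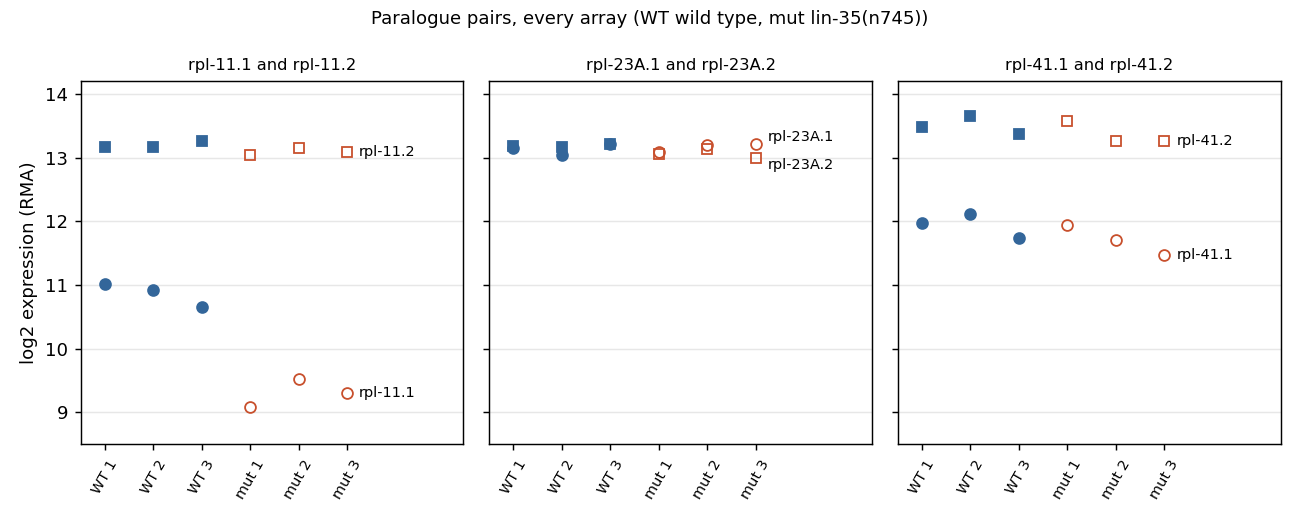
Log2 expression (vertical axis) of both copies of the 3 paralogue pairs on each array (horizontal axis), circles for rpl-11.1, rpl-23A.1 and rpl-41.1 and squares for their partners, filled for wild type and open for lin-35(n745). In the rpl-11 pair the first copy minus the second is −2.61 to −2.14 on wild-type and −3.94 to −3.61 on mutant arrays, while in the rpl-23A pair the points nearly coincide, with the difference turning from below 0 on wild-type to above 0 on mutant arrays, and in the rpl-41 pair the differences of the genotypes overlap.

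After rpl-11.1, the lowest differences among ribosomal protein genes belonged to rpl-42, rps-18, rps-7 and rpl-28, none of which passed the test. The dim rpl-42 probe set read 4.61, 4.998 and 4.53 on wild-type and 4.29, 4.29 and 4.49 on mutant arrays (−0.35, limma adjusted p = 0.263). The rps-18 gene, whose protein lies in the head of the small subunit, read 12.81, 12.79 and 12.77 on wild-type and 12.44, 12.38 and 12.61 on mutant arrays. Its groups did not overlap, and its difference of −0.31 had a 95% interval of −0.64 to 0.01 (limma adjusted p = 0.205). For rps-7 the difference was −0.28 (limma adjusted p = 0.29) and for rpl-28 −0.24 (limma adjusted p = 0.35). Both also kept the genotypes apart.

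At the other end stood rpl-26, rpl-12, rpl-19, rpl-3 and rps-27, all uncalled. Wild-type arrays read 13.46, 13.43 and 13.54 for rpl-26, whose protein flanks the exit tunnel, and mutant arrays read 13.58, 13.55 and 13.58. The groups of this rpl-26 probe set did not overlap and its difference was 0.10 (95% interval −0.21 to 0.41, limma adjusted p = 0.741). A dimmer rpl-26 probe set (mean 12.2) gave −0.20 (limma adjusted p = 0.498). There the mutant arrays lay entirely below the wild-type arrays, so the direction for rpl-26 depended on the probe set. The stalk-base protein gene rpl-12 differed by 0.08, rpl-19 by 0.06, rpl-3, whose protein reaches towards the peptidyl transferase centre, by 0.05 and rps-27 by 0.04, with limma adjusted p from 0.822 to 0.921. Each of these signs turned under at least 1 alternative.

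Genes with several probe sets gave a check on the representation. There were 32 such genes, none with a called probe set, and 43 genes with 1. The probe sets of a gene differed in their genotype difference by at most 0.38, for rps-20, whose dimmer probe set read 11.41, 11.64 and 11.39 on wild-type and 11.46, 10.56 and 10.95 on mutant arrays. Brightness differed by more than 2 log2 units between probe sets of 3 genes. Those of rpl-8 had means of 13.6 and 3.36, those of rps-18 means of 12.6 and 9.31, and the dimmest of rpl-12 a mean of 5.60 against 13.3 for its brightest. A dim reading such as that of rpl-42 therefore occurred also for genes whose other probe set was among the brightest.

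The ribosomal protein genes also varied together between replicates of a genotype. On wild-type replicate 2 and mutant replicate 1 the same genes tended to be low and the same to be high, relative to the mean of their own genotype. Across the 75 genes the deviations of these 2 arrays correlated at 0.71 (Spearman 0.67), against −0.17 over all probe sets. Over the same 75 genes, same-numbered arrays of the genotypes correlated at −0.57, −0.53 and 0.58 for replicates 1, 2 and 3. Likeness across genotypes was thus not particular to the 2 arrays above. Those 2 arrays were chosen after the values were seen, and genes of 1 array share its RNA and its normalization. The correlations are therefore a description. Both arrays were the lowest of their genotype for 17 genes (22.7%, against 7.31% of all genes) and the highest for 29 (38.7%, against 13.9% of all genes).

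Ribosomal proteins were first numbered roughly from large to small, but protein sizes were not used here and the numbers are given as a description. Of the 8 large-subunit genes with a number below 10, 7 were low on both arrays, namely rpl-3, rpl-4, rpl-5, rpl-6, rpl-7, rpl-7A and rpl-8. The other low genes of the large subunit included rpl-12, rpl-23A.1 and rpl-31, which gave all 13 a median number of 8. Of the 12 large-subunit genes that were high on both, none carries a number below 10, and their median number was 33.5. Among small-subunit genes 4 were low on both arrays, rps-3A, rps-4, rps-6 (the target of S6 kinase) and rps-27A. The 17 small-subunit genes high on both had a median number of 20 against 5. Of the 9 small-subunit genes with a number below 10, however, 3 were low and 3 (rps-3, rps-5 and rps-9) were high on both arrays.

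Single genes show the size of this variation. The rpl-7A values were 12.99, 12.60 and 13.21 on wild-type and 12.22, 13.01 and 13.14 on mutant arrays. Its spread within a genotype gave it the widest 95% interval of the family, −0.81 to 0.52 around a difference of −0.14 (limma adjusted p = 0.835). The rpl-3 values were 13.59, 13.19 and 13.65 on wild-type and 13.26, 13.68 and 13.63 on mutant arrays. In the other direction, rps-25 read 13.86, 13.98 and 13.84 on wild-type and 13.98, 13.69 and 13.68 on mutant arrays.

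Measures of RNA integrity moved with only 1 of the 2 arrays. The actin 3' to 5' difference was highest on mutant replicate 1 (2.31), and so were those of Gapdh (0.78) and catalase (3.73). On wild-type replicate 2 they were 0.70, 0.13 and 1.45, close to the other wild-type arrays. The part of RNA integrity in the pattern was not tested. Wild-type replicate 2 and mutant replicate 1 were lowest of all 6 arrays for 9 and 18 of the 75 genes and highest for 24 and 21. The rpl-11.1 gene followed neither pattern: replicate 3 was its lowest wild-type array and replicate 1 its lowest mutant array.

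**Figure D4:**
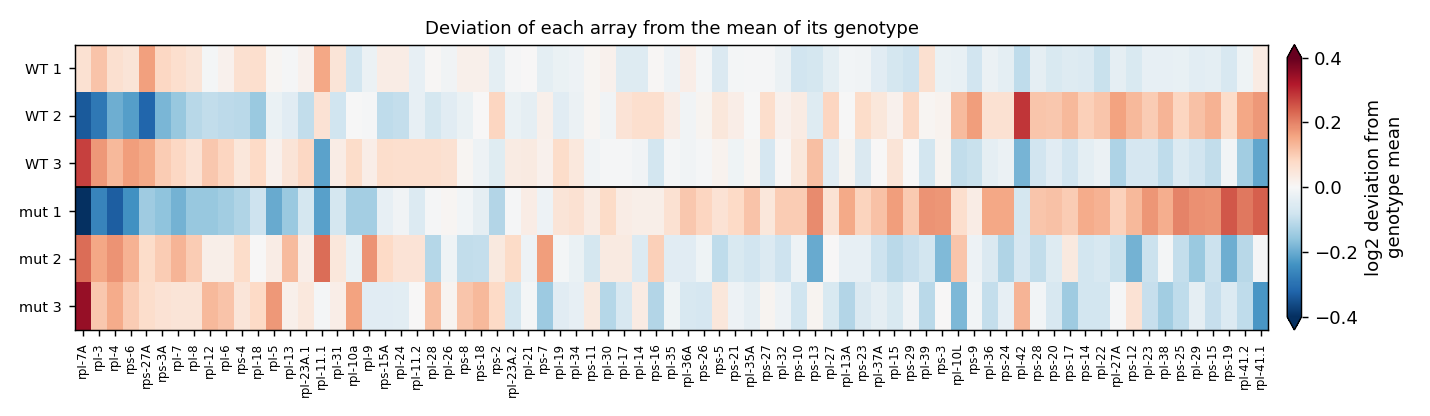
Deviation of each array from the mean of its genotype (colour, log2 units, red above and blue below, clipped at 0.4 in either direction) for the 75 ribosomal protein genes (horizontal axis, ordered by the sum of the deviations on wild-type replicate 2 and mutant replicate 1); WT stands for wild type and mut for lin-35(n745). The order runs from rpl-7A and rpl-3 to rpl-41.2 and rpl-41.1, and a gradient on those 2 arrays follows from the ordering. Their deviations correlated at 0.71 across genes.

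Ribosomal proteins and partners named outside the rpl and rps series behaved like the genes within it. These were the stalk proteins rplp-0, rplp-1, rplp-2.1 and rplp-2.2, which recruit elongation factors, the small-subunit protein gene rpsa-1, the ubiquitin fusion gene ubq-2 and the scaffold gene rack-1. Means ran from 12.8 to 13.7. None of the 7 was called, against 11.8% of all genes. The count was 0 also at an unadjusted limma p below 0.05 and with ordinary statistics. The differences ran from −0.13 for rplp-2.2 to 0.10 for rplp-0.

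Mitochondrial ribosomal protein genes, which serve the separate ribosome inside mitochondria, stood elsewhere. Of 59 such genes 23 fell in the mutant (6.12% of all genes) and none rose (5.71% of all genes). At an unadjusted limma p below 0.05, 42 were lower and 0 higher. The median difference was −0.71, negative under every scaling tried. The large-subunit gene mrpl-2 was lower by −2.09 (SE 0.19, limma adjusted p = 0.00119) and mrpl-49 by −1.45 (SE 0.18, limma adjusted p = 0.00356). The count of 23 became 10 and 12 when wild-type replicates 1 and 2 were left out in turn, and 15 when mutant replicate 3 was. It was 3 when mutant replicate 2 stood alone for its genotype. The difference between the 2 families was not tested.

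Of 32 measured genes on a list drawn up for ribosome biogenesis, not all of them assembly factors, 5 rose (5.71% of all genes) and 2 fell (6.12% of all genes). Their median difference was 0.50. Those that rose included the box C/D snoRNP gene nol-58 (0.91, limma adjusted p = 0.0355) and also toe-2 (1.47, limma adjusted p = 0.0138), which is better known as a target of ERK signalling. The 2 that fell, a share near that of all genes, were grwd-1 (−1.06, limma adjusted p = 0.00522) and rrp-1 (−1.07, limma adjusted p = 0.00446). The first is a ribosome assembly chaperone in yeast and human, the second a pre-rRNA processing factor in yeast. Wild-type replicate 2, on which the myosins were low, was also lowest for this list by its mean level, and without it the median difference was 0.28. The count of 5 was 2, 1 and 3 without wild-type replicates 1, 2 and 3, and 2, 1 and 1 without mutant replicates 1, 2 and 3. The nucleolar size repressor ncl-1 differed by −0.40 (limma adjusted p = 0.227).

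Initiation factors moved both ways. Of 30 genes 10 rose (5.71% of all genes) and 3 fell (6.12% of all genes). Among those that rose were the eIF3 subunit genes eif-3.H (1.80, limma adjusted p = 0.00523) and eif-3.I (1.26, limma adjusted p = 0.0037) and the exchange factor subunit gene eif-2Bdelta (1.38, limma adjusted p = 0.00379). The 3 that fell were the eIF3 and COP9-associated gene cif-1 (−0.85, limma adjusted p = 0.0164), eif-3.B (−0.58, limma adjusted p = 0.0375) and the cap-binding gene ife-2 (−0.999, limma adjusted p = 0.0238). The count of 10 became 6 and 5 when wild-type replicates 1 and 2 were left out in turn, and 6 when mutant replicate 3 was. Leaving out wild-type replicate 1 or 2 brought the lower count to 0, and leaving out replicate 3 of either genotype brought it to 1.

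Of 12 elongation and release genes 2 rose (5.71% of all genes) and 1 fell (6.12% of all genes). The release factor genes erfa-1 (1.22, limma adjusted p = 0.00719) and erfa-3 (0.55, limma adjusted p = 0.0463) were higher, and efk-1, the kinase that inhibits elongation factor 2, was lower (−0.87, limma adjusted p = 0.0111). The higher count was 1 without any single array, and efk-1 lost its call when the first wild-type array (replicate 1) was left out, leaving 0. None of 12 TOR pathway and translation control genes was called, against 11.8% of all genes. At an unadjusted limma p below 0.05, 2 were higher and 0 lower, and ordinary statistics called 0.

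**Figure D5:**
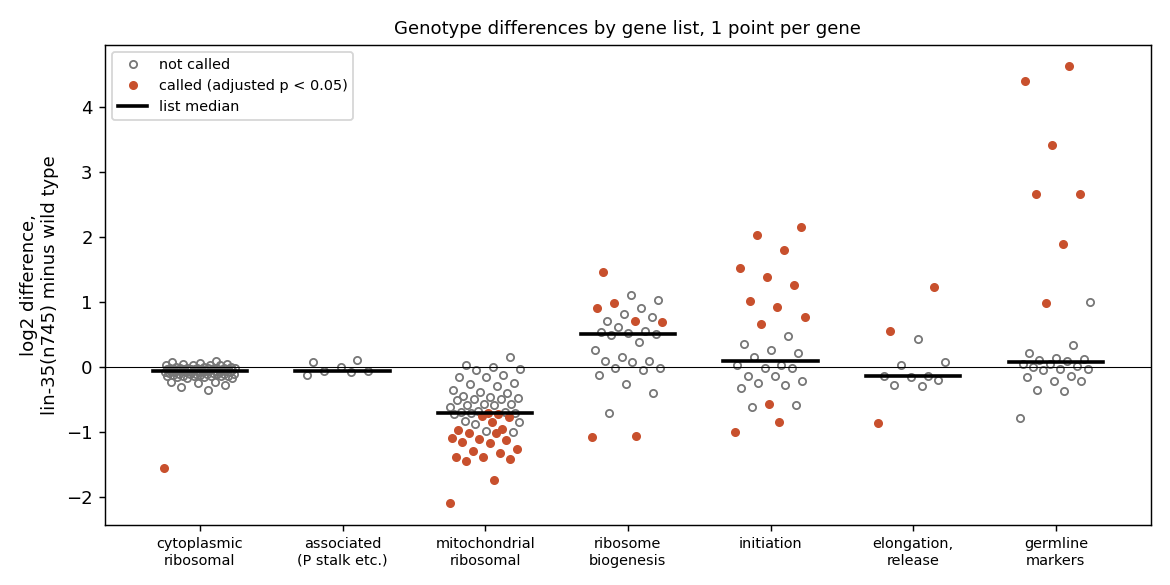
Log2 difference, lin-35(n745) minus wild type (vertical axis), for the genes of 7 lists (horizontal axis), with 1 point per gene, filled where the gene was called at a limma adjusted p below 0.05, and a bar at the list median. Cytoplasmic ribosomal protein genes lie in a narrow band with rpl-11.1 below it at −1.56, and mitochondrial ribosomal protein genes have a median of −0.71; the medians of the cytoplasmic, associated and elongation lists turned positive with repeated quantile normalization and cyclic loess, and that of the germline list negative with median centring.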

How the data were processed

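Per the submitters' processing notes the deposited values were made with RMA (no version given), and the authors gave them in log2 units. RMA subtracts background, equalises the distributions of the arrays and summarises the probes of a set, which removes any shift common to most transcripts. The deposited medians over all probe sets still differed. In replicate order they were 5.93, 5.91 and 5.91 on wild-type arrays and 5.98, 6.11 and 5.91 on mutant arrays. Per the labels' protocols, each labelling started from 6 µg of RNA. Of 22625 probe sets, 77 controls were left out and 22548 tested without a filter. A single symbol was given for 20766, several for 887 and none for 895 tested probe sets.

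Genotypes were compared with limma 3.58.1 (lmFit, eBayes, two-sided) in R 4.3.3. On simulated data with changes put into probe sets drawn from the whole array, the fit recovered 1.49% of 1.5-fold, 31.3% of 2-fold and 93.9% of 4-fold changes. A gene that is not called may therefore still differ. A gene is called when its Benjamini-Hochberg adjusted p over all 22548 probe sets is below 0.05. Paralogue pairs were compared within arrays by exact permutation. Members and lists were chosen with earlier results of these data known. Older symbols of rplp and rpsa genes were replaced after the annotation was read. Every called member, both copies of each pair, the 5 brightest and dimmest members, those with the 5 highest and lowest differences, members whose probe sets disagree in the call, the associated genes, up to 4 called genes a direction from each other list and glh-1, pgl-1, pgl-3 and ncl-1 could be named. Names outside this rule were chosen after their values were seen, such as rpl-7A. Alternatives covered scaling, dim and cross-matching probe sets, a replicate block, the variance prior, array weights, the mean of probe sets, RNA integrity and single arrays left out. Leaving out mutant replicates 1 and 3 together was chosen after seeing the data.

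Deviations of same-numbered arrays correlated at 0.05, 0.08 and 0.07 across probe sets, which does not settle whether the numbers pair arrays. The numbers were not taken to do so, since the labels do not say. No sequences are printed, since none were used here.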

Additional observations from a re-analysis of the deposited data

How the results depend on the processing

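The decrease of rpl-11.1 held in all alternatives that measured it but 1, in which mutant replicate 2 stood alone for its genotype (−1.33, limma adjusted p = 0.0583, 0 genes called lower). The count was also 0 without cross-matching probe sets, which removes its probe set. The median difference over ribosomal protein genes was −0.15 with median centring, 0.0083 with repeated quantile normalization, 0.18 with cyclic loess and −0.12 without cross-matching probe sets. The labels do not say whether the replicate numbers pair the arrays, and they were not taken to do so. With the number as a replicate block, 1514 probe sets were called higher and 1549 lower, against 1282 and 1260 without it, rpl-11.1 kept its call (limma adjusted p = 0.00553), and the shift in the rpl-11 gap was −1.46 (exact p = 0.25).

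Signs of differences near 0 turned, all uncalled, and their causes were not tested. With median centring they became −0.054 (rpl-23A.1), −0.0558 (rpl-21), −0.0414 (rps-27), −0.0365 (rpl-3), −0.0241 (rpl-19), −0.00576 (rpl-12) and −0.00817 (rack-1). With repeated quantile normalization they became 0.00687 (rpl-11.2), 0.0683 (rps-3A), 0.0515 (rpl-35), 0.0395 (rps-20), 0.102 (ubq-2), 0.0186 (rplp-1), 0.0188 (rpsa-1), 0.0613 (rplp-2.1) and 0.0257 (the rpl-41 gap). With cyclic loess they became 0.14 (rpl-11.2), 0.12 (rpl-23A.2), 0.11 (rpl-41.2, rps-20 and rplp-2.2), 0.15 (rps-25), 0.22 (rps-3A), 0.24 (rpl-35), 0.19 (rpl-31), 0.17 (ubq-2), 0.16 (rplp-1), 0.25 (rplp-2.1) and 0.18 (rpsa-1). Without cross-matching probe sets rpl-21 was −0.24, and with the mean of probe sets rpl-21 was −0.11 and rpl-26 −0.0501. Array weights gave −0.0278 for rpl-3 and 0.0197 for rplp-2.1, and the actin covariate gave 0.0574 for rps-3A. With the lone mutant array rps-3A was 0.0685 and rps-27 −0.0109. Without single arrays the ranges were −0.126 to 0.0454 (rps-3A), −0.0174 to 0.0722 (rpl-23A.1), −0.0406 to 0.0132 (rpl-35), −0.094 to 0.182 (rpl-3), −0.0495 to 0.218 (rplp-0) and −0.0693 to 0.0565 (rplp-2.1).

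Counts called in the other lists moved more. With ordinary statistics 8 mitochondrial ribosomal protein genes were lower, 4 initiation genes higher and 1 lower, and 0 biogenesis genes higher. Without cross-matching probe sets 1 biogenesis gene was higher and 1 lower, 6 initiation genes were higher and 0 lower, and 4 germline markers were higher. With the actin covariate 3 biogenesis and 6 initiation genes were higher. With the lone mutant array these counts of higher genes were 0 and 2, and 5 for the germline. A dim probe set such as that of rpl-42 compresses differences, and bright ones may do so near saturation, which was not tested.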
